A study of Mus musculus with 6 samples.

Results

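The genes described here encode the proteasome, its regulators and the immunoproteasome, in mouse gastrocnemius. They were taken by name, as the rows whose symbol starts with Psma, Psmb, Psmc, Psmd, Psme, Psmf or Psmg, without the 5 pseudogene rows marked -ps. This gave 51 of the 57010 genes of the table, and 48 of the 51 passed the filter for testing (1 TPM or more in 3 or more samples). The rule used no measured value. Expression was given as TPM, a share of all transcripts corrected for transcript length and scaled to 1000000 per library, so levels of different genes can be compared.

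The samples were gastrocnemius muscles of NSG (NOD/SCID/IL2Rγ-null) mice, an immunodeficient strain without mature T, B and natural killer cells. All mice of both groups carried a subcutaneous tumour on the left flank, grown from MDA-MB-231 human breast cancer cells with a knockdown of Rab27a, a small GTPase of vesicle secretion. The radiotherapy group (n = 3) received 10 Gy to the tumour in 1 fraction, and the contralateral gastrocnemius was collected after 3 days. Tumours of the control group (n = 3) were left untreated. No sample here came from a mouse without the knockdown or without a tumour, the labels give neither age nor sex, and they leave unsaid whether replicates are different mice. The p-values therefore measure only the spread between these samples, which may be technical.

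The proteasome is the protease that degrades most ubiquitin-tagged proteins of a cell. Its 20S core is a stack of rings, with outer rings of α subunits that form the gate and inner rings of β subunits, of which β5, β1 and β2 carry the catalytic sites. The 19S regulatory particle caps the core: its lid removes ubiquitin and its base unfolds the substrate with a ring of ATPases. In muscle the proteasome takes apart myofibrillar proteins during wasting. In cells exposed to interferon, and in leukocytes as a rule, the subunits Psmb8, Psmb9 and Psmb10 replace the constitutive Psmb5, Psmb6 and Psmb7, which gives the immunoproteasome and changes the peptides offered to MHC class I.

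No proteasome gene passed the test between radiotherapy and control. Of the 48 tested, 0 passed limma at a Benjamini-Hochberg adjusted p of 0.05, as did 0 of all 11375 genes tested (0%). At an unadjusted p under 0.05 in limma there were also 0 of the 48, against 435 of all tested genes (3.82%; 0.967% higher and 2.86% lower after radiotherapy). In none of the 48 did the 3 radiotherapy values lie wholly above or below the 3 controls, which was the case for 1051 of all tested genes (9.24%; 1.7% above and 7.54% below). The lowest limma adjusted p among them was 0.977. What the proteasome genes did show was a difference between single libraries, of 2 kinds. Constitutive core, base and lid genes were high in radiotherapy 3, and the immunoproteasome subunits were high in control 1. Radiotherapy 2 was lowest for 64.5% of the 31 core, base and lid genes, beside 52.4% of all tested genes. The lowest library depended on scaling: after median-of-ratios scaling it was control 2 in 20 of the 31 (64.5%, beside 16.6% of all tested genes). Radiotherapy 3 was still highest in 64.5% of the 31 after that scaling, beside 14.7% of all tested genes.

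Log2 fold changes, given as radiotherapy minus control on log2(TPM + 1), were small. Over the 48 genes they ran from −0.55 (Psme4) to 0.25 (Psme2), with a median of −0.04, beside −0.11 for all tested genes. Of the 48, 20 were positive and 28 negative, and of all tested genes 67.9% were negative. This split depended on how libraries were scaled: it was 30 positive and 18 negative after median-of-ratios scaling, 35 and 13 after quantile normalization, and 31 and 17 when mitochondrial and the 50 most abundant genes were left out. None of these settings called a member.

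**Figure D1:**
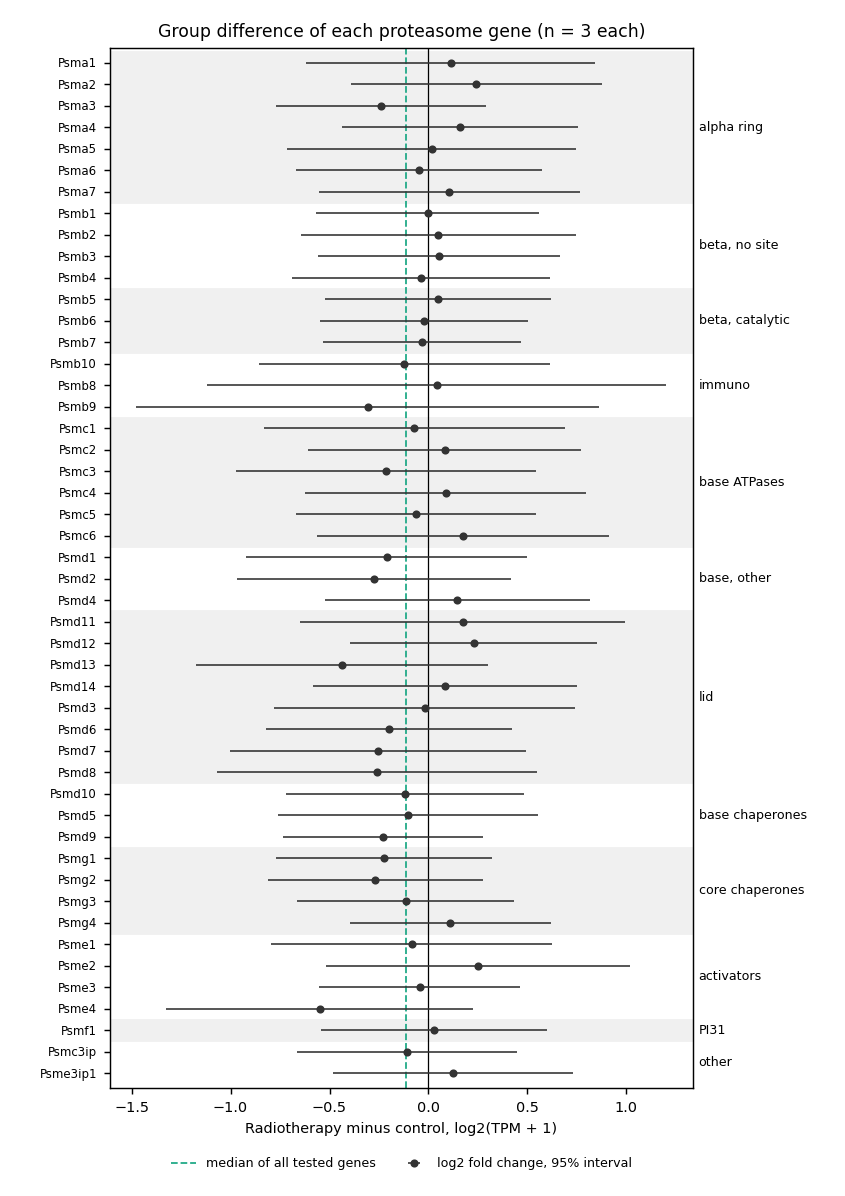
Log2 fold change of each of the 48 tested proteasome genes (x axis, radiotherapy minus control on log2(TPM + 1), n = 3 each) with its 95% interval from limma, ordered by role. Each interval includes 0, and the intervals of Psmb8 and Psmb9 are the widest of the catalytic subunits; the dashed line marks the median of all tested genes, −0.11.

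The libraries themselves differed before any gene is considered. The mitochondrial share of TPM was between 8.93 and 13.7% in the control libraries and between 15.1 and 22.5% in the radiotherapy group. Radiotherapy 3 held the highest value of the 6 for 35.8% of all tested genes, and radiotherapy 2 the lowest for 52.4%. The 10 muscle fibre markers summed to between 131968 and 138487 TPM in the control libraries. In the radiotherapy group they summed to between 66714 (radiotherapy 2) and 109626 TPM. Of the 10, 7 had negative and 3 positive log2 fold changes (Myh1 0.54, Myh2 0.61 and Myh7 0.66). Red blood cell markers summed to between 3352 and 7203 TPM in the control libraries and to between 930 and 1618 TPM in the radiotherapy group. All 5 were lower in each radiotherapy library than in any control, as were 6 of the 10 muscle fibre markers, beside 7.54% of all tested genes. The part of these shifts in the proteasome values was not tested. Leukocyte markers summed to 381 TPM in control 1 and 168 TPM in radiotherapy 3, and to 30.0 to 50.4 TPM in the other 4. Lymphocyte markers summed to 0.11 TPM or less in every library, and 4 of the 8 were listed at 0 in all 6.

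The α ring genes were among the more abundant members, with means over the 6 libraries from 67.0 TPM (Psma2) to 391 TPM (Psma7). Of the 7 ubiquitous α genes, 5 had positive and 2 negative fold changes (median 0.11), and 0 passed. Psma7, the most abundant, was at 356, 303 and 455 TPM in the controls (values follow the replicate order 1, 2, 3 throughout) and at 304, 341 and 589 TPM after radiotherapy. Psma2, the least abundant, was at 69.2, 51.3 and 60.7 TPM in controls and at 54.6, 65.0 and 100.92 TPM after radiotherapy. In both genes radiotherapy 3 was highest, and the other 2 radiotherapy libraries lay within the control range. Psma3 ran the other way, with 269, 191 and 248 TPM in controls and 199, 167 and 233 TPM after radiotherapy, so the groups overlapped. Its mean went from 236 ± 40.3 to 200 ± 33.0 TPM (SD, n = 3 each; log2 fold change −0.24, SE 0.23, limma adjusted p = 0.977). The α median was −0.25 when radiotherapy 3 was left out, as was the median of all tested genes. Psma8, an α subunit of the testis, was listed at 0.10 TPM or less in every library.

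The β genes without a catalytic site, Psmb1 to Psmb4, were each highest in radiotherapy 3, while the lowest library was radiotherapy 1 for Psmb1 and Psmb3 and radiotherapy 2 for Psmb2 and Psmb4. Their fold changes lay between −0.04 and 0.05. Psmb3, the most abundant of the 4, was at 374, 271 and 391 TPM in controls and at 269, 337 and 485 TPM after radiotherapy. Psmb2, the least abundant, was at 109.6, 81.8 and 111 TPM in controls and at 86.2, 79.3 and 161 TPM after radiotherapy. Radiotherapy 3 was highest for both, and control 2 lay near the low end.

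The constitutive catalytic genes had fold changes near 0. Psmb5, which encodes the chymotrypsin-like β5, was at 123, 101.1 and 118 TPM in controls and at 114, 92.1 and 156 TPM after radiotherapy. Psmb6, the caspase-like β1, was at 353, 252 and 352 TPM and then at 292, 276 and 371 TPM. Psmb7, the trypsin-like β2 and the most abundant of all members, was at 439, 401 and 491 TPM and then at 439, 349.9 and 525 TPM. The ranges overlapped in all 3, with radiotherapy 3 highest in each. The log2 fold changes were 0.05 for Psmb5 (95% interval −0.52 to 0.62), −0.02 for Psmb6 (−0.55 to 0.50) and −0.03 for Psmb7 (−0.53 to 0.47). Each interval spans changes in either direction.

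**Figure D2:**
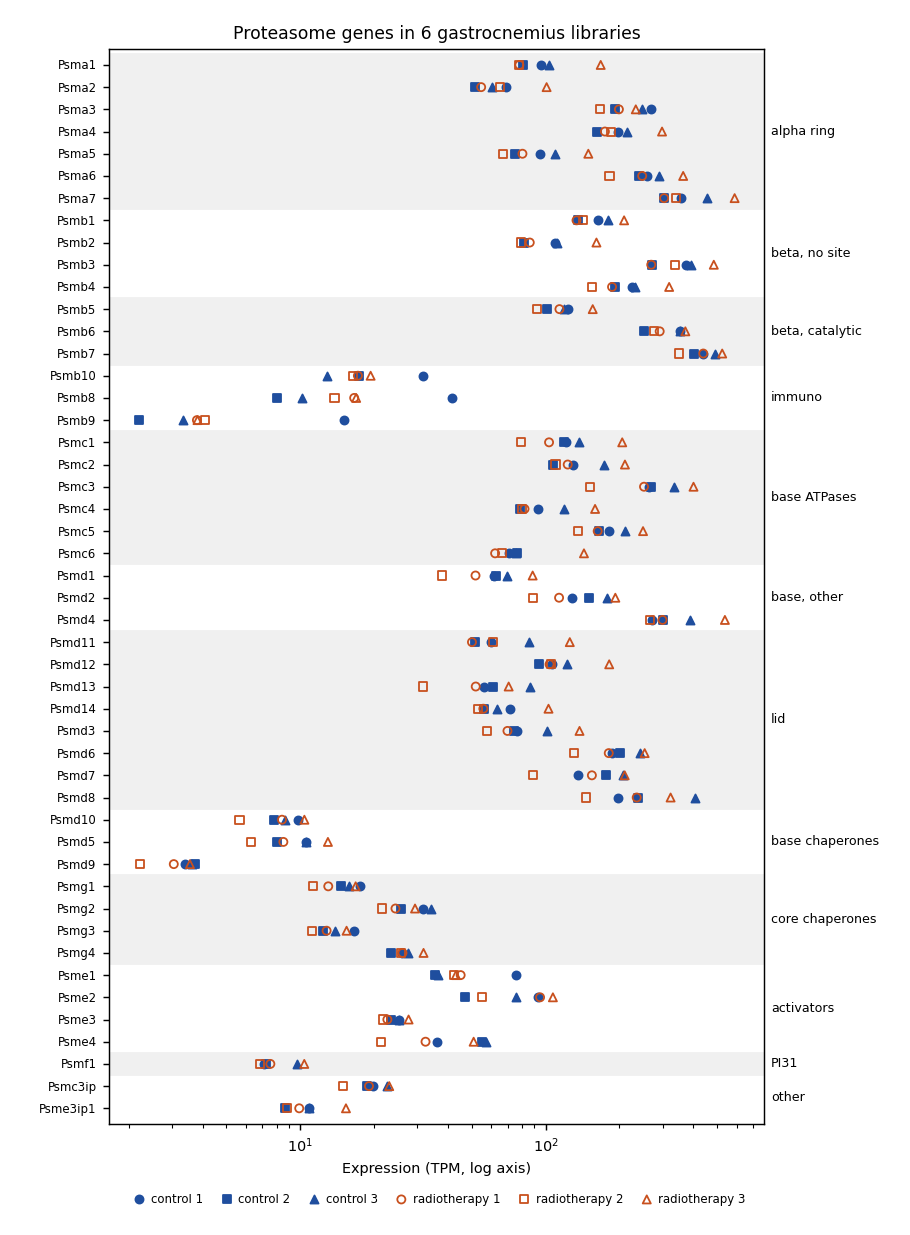
Expression of the 48 tested proteasome genes in each of the 6 libraries (x axis, TPM on a log axis; filled blue symbols, controls; open orange symbols, radiotherapy), ordered by role. Open triangles (radiotherapy 3) lie furthest right in most core, base and lid rows, and the filled circle (control 1) lies far to the right of the others for Psmb8, Psmb9, Psmb10 and Psme1.

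The immunoproteasome catalytic genes stood below the constitutive ones in every library and varied most in the control group. Psmb8 (ENSMUSG00000024338), the β5i subunit, was at 41.35, 8.03 and 10.1 TPM in controls and at 16.6, 13.8 and 16.9 TPM after radiotherapy. Psmb9 (ENSMUSG00000096727), the β1i subunit, was at 15.05, 2.20 and 3.33 TPM in controls and at 3.79, 4.10 and 3.81 TPM after radiotherapy. Psmb10 (ENSMUSG00000031897), the β2i subunit, was at 31.7, 17.4 and 12.8 TPM in controls and at 17.2, 16.4 and 19.35 TPM after radiotherapy. Control 1 was the highest library for each, and the 3 radiotherapy libraries lay close together, between control 1 and the lowest control. Control 1 exceeded the mean of controls 2 and 3 by 4.55-fold for Psmb8, 5.44-fold for Psmb9 and 2.10-fold for Psmb10. For all tested genes the median of that ratio was 0.959, with a 95th percentile of 2.20, so Psmb8 and Psmb9 lay above it and Psmb10 just below.

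Between groups the 3 genes gave log2 fold changes of 0.04 for Psmb8 (95% interval −1.12 to 1.20), −0.31 for Psmb9 (−1.48 to 0.86) and −0.12 for Psmb10 (−0.86 to 0.61), all with limma adjusted p from 0.980 to 0.996. These values turned on control 1. Without it the log2 fold changes were 0.73 for Psmb8, 0.40 for Psmb9 and 0.22 for Psmb10. None of these passed limma either (adjusted p = 0.961 for Psmb8 and Psmb9 and 0.967 for Psmb10, 3 against 2 samples). Control 1 was left out after its high values for these genes were seen. Every radiotherapy value of Psmb8 and Psmb9 then lay above both remaining controls, from 13.8 against at most 10.1 TPM for Psmb8 and from 3.79 against at most 3.33 TPM for Psmb9, while for Psmb10 they overlapped. With Psme1 this made 3 of the 48 tested members (6.25%), a share near the 5.56% of all tested genes that separated upward in the same way.

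The promoters of Psmb8 and Psmb9, which departed most in control 1, are printed beside those of the constitutive partners Psmb5 and Psmb6, which did not. Each line holds the 250 bases before the RefSeq start, 5′ to 3′ on the gene's strand, in GRCm38.p6; the submitters' processing notes name mm9, so these coordinates do not apply to the authors' alignment. Capitals mark matches to TGACNNNGC and TTCNNNGAA.
Psmb8, chr17:34197945-34198194, plus strand: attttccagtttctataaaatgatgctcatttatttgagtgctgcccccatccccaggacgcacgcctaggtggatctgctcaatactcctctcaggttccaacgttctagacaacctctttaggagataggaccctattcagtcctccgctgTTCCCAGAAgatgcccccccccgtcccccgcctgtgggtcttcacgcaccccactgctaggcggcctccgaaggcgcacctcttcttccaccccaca
Psmb5, chr14:54617996-54618245, minus strand: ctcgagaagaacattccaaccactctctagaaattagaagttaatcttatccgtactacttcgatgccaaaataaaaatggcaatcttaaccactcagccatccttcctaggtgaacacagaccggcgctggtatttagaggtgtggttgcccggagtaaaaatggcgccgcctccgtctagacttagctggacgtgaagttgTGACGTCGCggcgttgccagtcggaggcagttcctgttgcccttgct
Psmb9, chr17:34187331-34187580, minus strand: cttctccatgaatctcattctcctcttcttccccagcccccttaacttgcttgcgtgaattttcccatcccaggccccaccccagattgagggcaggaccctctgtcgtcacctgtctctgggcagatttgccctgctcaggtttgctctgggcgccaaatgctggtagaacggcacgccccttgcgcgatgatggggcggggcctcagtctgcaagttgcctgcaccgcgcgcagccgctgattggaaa
Psmb6, chr11:70525107-70525356, plus strand: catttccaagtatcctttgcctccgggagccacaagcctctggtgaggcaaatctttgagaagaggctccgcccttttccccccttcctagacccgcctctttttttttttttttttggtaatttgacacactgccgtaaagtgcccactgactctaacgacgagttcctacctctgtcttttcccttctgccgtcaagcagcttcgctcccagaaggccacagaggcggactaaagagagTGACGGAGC

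Both Psmb5 and Psmb6 hold a TGACNNNGC match, the core of the antioxidant response element that NRF1 and NRF2 bind, and Psmb8 holds a TTCNNNGAA match, the letters of the gamma-activated site of interferon-responsive promoters. Motifs were searched on both strands in the same 250-base window of every RefSeq promoter, and 43 of the 51 members had one. TGACNNNGC was in 5 of the 43 (11.6%: Psmb5, Psmb6, Psmc6, Psmd9 and Psmd12), beside 14.2% of the 8478 tested genes with a promoter. TTCNNNGAA was in 2 of the 43 (4.65%: Psmb8 and Psmg1), beside 6.90%. The core of the interferon-stimulated response element was in 3 (6.98%: Psmb3, Psmd4 and Psmd9), beside 3.07%, and an NF-κB site was in 0, beside 0.165%. CCGGAAG, the core recognised by ETS factors, was in 13 of the 43 (30.2%), among them 8 base or lid genes and none of the printed 4, beside 16.5%. These shares are of tested genes, while the 43 include Psmb11, which was not tested. Over all 27025 promoters, tested or not, the shares of these motifs were 11.5, 8.13, 3.46, 0.159 and 7.83%, in the same order. With 3 other spellings of the antioxidant and interferon-stimulated elements, 8 motifs were searched, all chosen after expression values were seen. The loosest, TGANNNNGC, was in 18 of the 43 (41.9%, Psmb9 among them), beside 42.1% of tested genes. Every TGACNNNGC match is also a match to this looser form, which is not marked in the printed sequences. A match describes letters only.

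Because Psmb8, Psmb9 and Psmb10 each take the place of 1 constitutive subunit, their ratio to that partner was taken within each library, which removes the scaling of TPM. Psmb8 stood at 33.6, 7.94 and 8.57% of Psmb5 in the controls and at 14.6, 15.0 and 10.9% after radiotherapy. Psmb9 stood at 4.27, 0.874 and 0.946% of Psmb6 in controls and at 1.30, 1.49 and 1.03% after radiotherapy. Psmb10 stood at 7.22, 4.34 and 2.62% of Psmb7 in controls and at 3.91, 4.69 and 3.69% after radiotherapy. Control 1 was above every other library in all 3 ratios, by 2.25-, 2.87- and 1.54-fold over the next highest, and a ratio within a library is not altered by its scaling.

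The ratios did not separate the groups. The difference of mean log2 ratios, radiotherapy minus control, was 0.02 for Psmb8/Psmb5 (means −2.91 ± 0.26 and −2.92 ± 1.17; SD, n = 3 each; exact permutation p = 1, two-sided). It was −0.28 for Psmb9/Psmb6 (exact permutation p = 1) and −0.09 for Psmb10/Psmb7 (exact permutation p = 0.8); 3 such ratios were tested, and 3 samples against 3 cannot give a p below 0.1. Control 1 was left out after its high values for these genes were seen. The differences without it were 0.69, 0.47 and 0.28, with exact permutation p = 0.2, 0.2 and 0.5. With 3 samples against 2, this test cannot give a p below 0.1. Radiotherapy ratios then lay above both remaining controls for Psmb8/Psmb5 and Psmb9/Psmb6, and overlapped for Psmb10/Psmb7. How often other pairs of genes separate in this way was not tested. Psmb11, which takes the β5 place in the thymus, was listed at 0.02 TPM or less in every library.

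**Figure D3:**
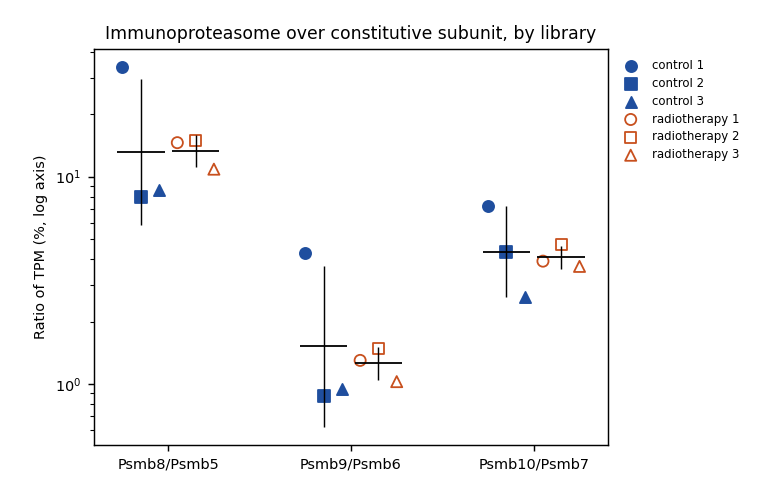
Ratio of each immunoproteasome catalytic gene to its constitutive partner by library (y axis, percent, log axis; filled symbols, controls; open symbols, radiotherapy; horizontal lines, means of log2 ratios; vertical lines, ± 1 SD, n = 3). Control 1 stands at 33.6, 4.27 and 7.22%, above the other 5 libraries in each pair, and the 3 radiotherapy libraries lie close together.

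Of 16 other genes of interferon response and antigen processing, 13 were highest in control 1. Calr and Canx were highest in radiotherapy 3, and Irf2 in control 3. Beside this count and those of the marker lists below, control 1 was highest for 17.3% of all tested genes. Together the 16 summed to 1479 TPM in control 1, 396 TPM in controls 2 and 3 each, and 538, 456 and 685 TPM after radiotherapy. Tap1, the peptide transporter gene that neighbours Psmb9, was at 5.78, 0.73 and 1.94 TPM in controls and at 2.07, 1.98 and 2.13 TPM after radiotherapy. B2m, the light chain of MHC class I, was at 565, 111 and 121 TPM in controls and at 183, 167 and 201 TPM after radiotherapy. In both, as in Psmb8 and Psmb9, control 1 was highest and each radiotherapy library lay above controls 2 and 3. Of the 15 tested genes 5 were positive and 10 negative (median −0.10) and 0 passed limma. The smallest p-values were those of Erap1 (log2 fold change −0.42), Irf8 (−0.43) and Canx (−0.36), all with limma adjusted p = 0.977. The sum of the 10 leukocyte markers was 9.48-fold higher in control 1 than in the mean of controls 2 and 3. The pan-leukocyte gene Ptprc was at 4.41 against 0.42 and 0.09 TPM. Of the 8 fibroblast markers 6 were also highest in control 1, with Col3a1 at 33.7 against 4.60 and 1.33 TPM. Gsn was at 115 against 137 and 106 TPM. The 8 summed to 330 TPM in control 1 and to between 166 and 285 TPM in the other 5 libraries. None of the 8 endothelial or 6 adipocyte markers was highest in control 1. Control 1 sums were 1.43-fold (fibroblast), 1.41-fold (endothelial) and 1.42-fold (adipocyte) the mean of controls 2 and 3. After radiotherapy the leukocyte markers summed to 30.6, 38.7 and 168 TPM. Ptprc was at 0.12, 0.15 and 0.80 TPM there, and Psmb8 at 16.6, 13.8 and 16.9 TPM. The part of these cell types in the control 1 values was not tested, and in whole muscle more cells of a type and more RNA per cell cannot be told apart.

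The base of the regulatory particle followed the core. The 6 ATPase genes summed to 862, 816 and 1049 TPM in controls and to 785, 623 and 1368 TPM after radiotherapy, with a median fold change of 0.01, 3 positive and 3 negative. Psmc3, the most abundant ATPase, was at 265, 269.7 and 335 TPM in controls and at 252, 151 and 401 TPM after radiotherapy. Psmc6, the least abundant, was at 71.1, 76.3 and 76.1 TPM in controls and at 62.2, 66.6 and 143 TPM after radiotherapy. For Psmc6 the controls agreed within 2.96 TPM (SD), against 45.6 TPM in the radiotherapy group, a spread made by radiotherapy 3.

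Among the base subunits that are not ATPases, Psmd4, a ubiquitin receptor, was at 271, 302 and 387 TPM in controls and at 299, 267 and 538 TPM after radiotherapy. Psmd1, a scaffold subunit, was at 61.7, 62.9 and 69.6 TPM in controls and at 51.8, 37.7 and 88.5 TPM after radiotherapy. Psmd2, the other scaffold, was at 129, 151 and 178 TPM and then at 113, 89.1 and 192 TPM. Radiotherapy 2 was lowest and radiotherapy 3 highest in all 3 genes, so the radiotherapy group spanned the control group. Their log2 fold changes were 0.15 (SE 0.30), −0.21 (SE 0.31) and −0.27 (SE 0.31), with limma adjusted p from 0.979 to 0.984.

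Lid genes gave 3 positive and 5 negative fold changes with a median of −0.11, which equals that of all tested genes to 2 decimals. Psmd8, the most abundant lid gene, was at 198, 238 and 407 TPM in controls and at 235, 146 and 323 TPM after radiotherapy. Psmd13, the least abundant, was at 56.0, 60.9 and 86.6 TPM in controls and at 51.9, 31.8 and 70.7 TPM after radiotherapy. For these 2 genes control 3, not radiotherapy 3, was the highest library. Psmd13 had the second smallest p of all members (log2 fold change −0.44, SE 0.33, limma adjusted p = 0.977). Psmd7 was at 136, 176 and 207 TPM in controls and at 154, 89.1 and 210.0 TPM after radiotherapy. Psmd12 was at 106, 94.1 and 123 TPM in controls and at 104, 105 and 182 TPM after radiotherapy (log2 fold changes −0.26 and 0.23). Psmd14, the deubiquitinase of the lid, gave 0.09 (SE 0.29), with 102.7 TPM in radiotherapy 3 and 53.0 to 71.6 TPM in the other 5 libraries.

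Across the 31 core, base and lid genes the highest library was mostly shared, and the lowest less so. Radiotherapy 3 was highest in 28 of 31 (90.3%, beside 35.8% of all tested genes). Radiotherapy 2 was lowest in 20 (64.5%, beside 52.4%), control 2 in 7 and radiotherapy 1 in 4. The exceptions at the top were Psma3, highest in control 1, and Psmd8 and Psmd13, highest in control 3. Of the pathway lists below, radiotherapy 3 was highest in 7 of 11 proteasome-associated genes and 8 of 12 shuttle factor and p97 genes. It was highest in 5 of 10 genes around NRF1, 2 of 6 ubiquitin genes and 1 of 8 atrophy ligases. Among the cell type markers it was highest in 6 of 8 endothelial, 1 of 8 fibroblast and 0 of 10 muscle fibre genes. The 20S core genes summed to 3130, 2539 and 3354 TPM in controls and to 2658, 2516 and 4127 TPM after radiotherapy. The 19S genes summed to 2214, 2282 and 3000.2 TPM in controls and to 2152, 1690 and 3591 TPM after radiotherapy. Radiotherapy 3 exceeded radiotherapy 2 by 1.64-fold in the core sum and 2.13-fold in the 19S sum, and the median of that ratio was 1.997 over the 31 genes and 1.55 over all tested genes. After median-of-ratios scaling the medians were 1.32 over the 31 genes and 1.03 over all tested genes. Radiotherapy 3 was then highest in 20 of 31 (64.5%, beside 14.7% of all tested genes), and control 2 rather than radiotherapy 2 was lowest in 20.

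**Figure D4:**
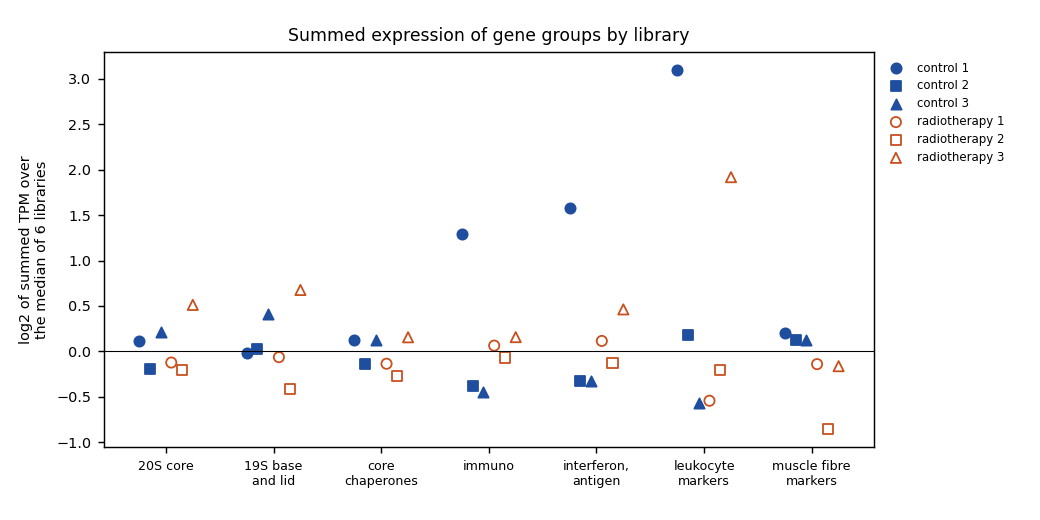
Summed TPM of gene groups in each library, as log2 of the ratio to the median of the 6 libraries (y axis; filled symbols, controls; open symbols, radiotherapy). Radiotherapy 3 is the highest library for the 20S core (4127 TPM) and for the 19S genes (3591 TPM), while control 1 is highest for the immunoproteasome (88.1 TPM), the interferon and antigen genes (1479 TPM) and the leukocyte markers (381 TPM).

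The assembly chaperones among the members, Psmg1 to Psmg4, Psmd5, Psmd9 and Psmd10, were expressed at a lower level than the constitutive subunits. The core chaperones Psmg1 to Psmg4, which help build the α ring, had means from 13.7 TPM (Psmg3) to 27.8 TPM (Psmg2), and their sum in radiotherapy 3 was 1.34-fold that in radiotherapy 2. Psmg2 was at 31.5, 25.65 and 34.1 TPM in controls and at 24.4, 21.55 and 29.35 TPM after radiotherapy. Psmg1 was at 17.5, 14.6 and 15.85 TPM in controls and at 13, 11.3 and 16.8 TPM after radiotherapy, and Psmg3 at 16.6, 12.4 and 13.9 TPM and then at 12.8, 11.1 and 15.4 TPM. The groups overlapped in each, with log2 fold changes of −0.27 (SE 0.24), −0.22 (SE 0.24) and −0.12 (SE 0.24). Psmg4 gave 0.11. Among the base chaperones, Psmd9 was the lowest tested member, at 3.39, 3.72 and 3.62 TPM in controls and 3.05, 2.23 and 3.55 TPM after radiotherapy (log2 fold change −0.23, SE 0.22). Psmd5 was at 10.5, 8.02 and 10.55 TPM in controls and at 8.53, 6.27 and 12.96 TPM after radiotherapy, and Psmd10, also known as gankyrin, gave −0.12. All 3 base chaperones were negative and none passed limma (adjusted p from 0.977 to 0.987).

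The activators, which open the core in place of the 19S cap, did not share 1 order of libraries. Psme1, PA28α, was at 75.9, 35.3 and 36.5 TPM in controls and at 45.0, 42.3 and 43.1 TPM after radiotherapy, so control 1 was highest, by 2.11-fold over the mean of the other controls, and the radiotherapy values lay above controls 2 and 3 as they did for Psmb8. Psme2, its partner PA28β in the same ring, was at 93.1, 46.9 and 76.0 TPM in controls and at 94.9, 55.2 and 107 TPM after radiotherapy. Control 1 was therefore not apart for Psme2, and radiotherapy 3 was highest. Psme2b, a gene nearly identical to Psme2 with which it may share reads, was at 0.26 to 1.32 TPM and was not tested. The log2 fold changes were −0.08 for Psme1 (95% interval −0.79 to 0.63) and 0.25 for Psme2 (−0.52 to 1.02); without control 1 they were 0.27 and 0.46, and neither passed limma (adjusted p = 0.967 and 0.961).

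Psme3, the nuclear PA28γ, was at 25.2, 23.35 and 25.3 TPM in controls and at 22.6, 21.6 and 27.6 TPM after radiotherapy (log2 fold change −0.04, SE 0.22). Psme4, the large activator PA200, had the smallest p and the largest negative fold change of all members. It was at 36.0, 55.05 and 57.4 TPM in controls and at 32.4, 21.3 and 50.9 TPM after radiotherapy. The groups overlapped, since radiotherapy 3 lay above control 1, and the means were 49.5 ± 11.7 and 34.9 ± 14.9 TPM (log2 fold change −0.55, SE 0.34, 95% interval −1.32 to 0.22, limma adjusted p = 0.977). Without radiotherapy 3 its log2 fold change was −0.86, and it did not pass (limma adjusted p = 0.507). Psmf1, the inhibitor PI31, was at 7.10, 7.28 and 9.71 TPM in controls and at 7.55, 6.83 and 10.4 TPM after radiotherapy (log2 fold change 0.03, SE 0.25). The symbols of 2 further genes match the rule although neither encodes a subunit: Psmc3ip, a meiotic recombination factor, gave −0.11, and Psme3ip1, a partner of PA28γ, gave 0.13.

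The other genes of the ubiquitin-proteasome pathway, from lists chosen by function, did not pass limma either. Beside the signs of each list below, 67.9% of all tested genes were negative (median −0.11). Of 11 tested proteasome-associated genes 3 were positive and 8 negative (median −0.11), and Sem1, a small lid subunit, and Ube3c, a ligase bound to the particle, were below every control in all 3 radiotherapy libraries. Ube3c was at 7.91, 8.57 and 8.95 TPM in controls and at 5.63, 4.28 and 7.60 TPM after radiotherapy (log2 fold change −0.50, SE 0.25, limma adjusted p = 0.977). The next 2 by p were Ube3a (0.30) and Ecpas (−0.51). Groups that did not overlap with radiotherapy lower made up 7.54% of all tested genes, and 2 of 11 is a count too small to be read against that.

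Among 10 genes around NRF1, the factor that raises proteasome transcription when degradation fails, 2 were positive and 8 negative (median −0.26), and 0 passed. Nfe2l1, which encodes NRF1, was at 117, 116 and 145 TPM in controls and at 115, 97.1 and 182 TPM after radiotherapy, highest in radiotherapy 3 and lowest in radiotherapy 2. The smallest p-values were those of Maff (log2 fold change −0.85, SE 0.41), Ddi2, the protease that activates NRF1 (−0.60, SE 0.32), and Nfe2l2 (−0.44, SE 0.31), all with limma adjusted p = 0.977. Shuttle factors and p97 genes gave 2 positive and 9 negative values of 11 tested (median −0.22), among them Nploc4 (−0.47, SE 0.41) and Nsfl1c (0.32, SE 0.35).

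Of 5 tested ubiquitin and activation genes 4 were negative (median −0.19). Rps27a, which encodes ubiquitin fused to a ribosomal protein, gave a log2 fold change of −0.18. The 8 ubiquitin ligases of muscle atrophy were all negative (median −0.28), beside 67.9% of all tested genes (median −0.11). Their smallest p-values were those of Nedd4 (−0.39), Fbxo21 (−0.24) and Fbxo30 (−0.33). None of these 13 genes passed limma (adjusted p from 0.977 to 0.986).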

How the data were processed

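The authors deposited 1 table of TPM values for 57010 genes in 6 samples; each column sums to 1000000, so sequencing depth, counting intervals and detection limits are unknown. HISAT2, StringTie, RSEM and build mm9 are named, per the submitters' processing notes; versions, annotation and strandedness are not stated there, so overlapping and near-identical genes cannot be separated. No library duplicated another: in the most alike pair, 4.16% of nonzero values coincided to 2 decimals.

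The test ran on log2(TPM + 1) (pseudocount 1), which understates changes of low genes. The 11375 genes reaching 1 TPM in 3 or more samples were fitted with limma 3.58.1 in R 4.3.3 (mean-variance trend, group as the only term, two-sided) and adjusted by Benjamini-Hochberg. The fit was tested on simulated data. Ratios were compared by exact permutation tests in Python 3.11.15, and figures drawn with matplotlib 3.10.9. Promoters came from RefSeq (GRCm38.p6).

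The members, lists and motifs were chosen with earlier results of these data known. Named with all values were the catalytic subunits, the activators, PI31, the 10 members of smallest p, and the highest and lowest member of each role; of other lists, the 3 genes of smallest p, some of which are not reported here. Psmd14, Psmg4, Psmd10, Sem1, Nfe2l1, Tap1, B2m, Ptprc, Col3a1 and Gsn were named after their values were seen. Alternatives covered pseudocount, filter, scaling, trend, replicate block and each sample left out.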

Additional observations from a re-analysis of the deposited data

How the results depend on the processing

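No setting called a proteasome gene, and 0 members passed limma with each sample left out in turn. The count of all genes called was 0 throughout, except for 1 without control 1 and 1 without radiotherapy 1 (range 0 to 1 over samples left out) and 6 without control 1 and radiotherapy 3 together. That pair, and radiotherapy 2 with 3, were left out as alternatives chosen after seeing the data; the last leaves 1 radiotherapy sample, assumed to vary like the others. At an unadjusted limma p under 0.05, Psmb8 came up without control 1, Psme4 and Psmd2 without radiotherapy 3, and Psmb8 and Psme4 without control 1 and radiotherapy 3; the shares of all tested genes at that threshold were 5.07, 8.05 and 9.49%. The α ring median moved from 0.11 to −0.25 without radiotherapy 3, −0.23 without control 1 and radiotherapy 3, and −0.19 without radiotherapy 2 and 3; the medians of all tested genes were −0.25, −0.24 and −0.16 there. Over samples left out that median ranged from −0.25 to 0.29. The sign of single members was not stable: 18 of 48 changed sign without radiotherapy 3, 17 without radiotherapy 2 and 15 with quantile normalization.

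The Psmb8/Psmb5 difference of 0.02 turned to −0.0072 with a pseudocount of 1 and ranged from −0.35 to 0.69 over samples left out. Psmb9/Psmb6 ranged from −0.68 to 0.47 and Psmb10/Psmb7 from −0.46 to 0.28 over samples left out; without control 1 and radiotherapy 3 the 3 differences were 0.84, 0.61 and 0.35. Replicate numbers 1 to 3 recur in both groups without a stated pairing. Deviations of same-numbered samples correlated at −0.06, 0.02 and −0.11 (across genes), and those of differently numbered samples at −0.125 to 0.171. With 3 samples per group these values cannot decide whether the numbers pair the samples. With the replicate block, 0 members and 0 genes were called, and the ratio differences kept their values of 0.02, −0.28 and −0.09. Depth cannot be read from TPM.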
